A study of Mus musculus with 186 samples.

Results

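Bdnf, the gene of brain-derived neurotrophic factor, was followed through every culture and visual cortex table of the study that lists it. The rule took the gene by its symbol, which gave 1 of 298 genes of the captured panel, and took each transcript of that symbol apart in the intron table, which gave 11 of 27962 transcripts. Of 351 captured enhancer regions in the table used here, 0 were assigned to Bdnf, so enhancers of Bdnf are not analysed here. The study compared brief with sustained neuronal activity and asked what MEK, the kinase upstream of ERK, contributes to the RNA responses. RNA came from CD1 mouse cortical neurons, dissected at embryonic day 16.5 and cultured for 7 to 8 days, and from the visual cortex of adult male C57/Bl6 mice.

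The captured cultures had received sustained activity for 20, 60 or 360 min (3, 7 and 6 replicates), brief activity read at the same times (3, 7 and 5 replicates) or no activity (7 replicates), all in DMSO, the vehicle. Cultures in U0126, a MEK inhibitor, had 3 replicates each at 20 and 60 min of sustained activity and unstimulated, and 2 at 360 min. A separate captured experiment had 2 samples each with cycloheximide (CHX), an inhibitor of protein synthesis, or vehicle, after 360 min of sustained activity or unstimulated. Total RNA libraries covered 20 and 60 min of both patterns and unstimulated cultures, in U0126 and in vehicle, with 2 replicates a group except 1 for U0126 sustained 60 min and 1 for vehicle brief 60 min. Mice had been given a second MEK inhibitor, SL327, or its corn oil vehicle, with sustained or brief light or darkness, and were read at 30 or 150 min with 2 or 3 samples a group. How the cultures were made active and at what dose drugs were given is not in the labels, which mark some unstimulated cultures as grown separately from 1 dissection, which were averaged to 1 replicate. The visual cortex labels number no animals, so whether each sample is 1 mouse is not stated. Nothing states that differently numbered cultures were independent preparations, so p-values measure the spread between these samples.

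BDNF is a secreted neurotrophin that binds the receptor TrkB and supports the survival of neurons and the strengthening of synapses. Its gene is a textbook activity-regulated gene of cortex, with several alternative first exons, each with a promoter of its own, spliced to a shared last exon that holds the coding sequence. The promoters ahead of first exons I and IV are the best studied in active cortical neurons, where CREB and NPAS4, transcription factors downstream of calcium entry, bind.

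The gene lies on the plus strand of mouse chromosome 2. On GRCm38, first exon I of NM_007540 spans 109674700 to 109675339, first exon II starts at 109675897 in 3 transcripts that differ in where it ends, and first exon III of NM_001285419 spans 109677032 to 109677224. First exon IV of NM_001048141 spans 109692436 to 109692774, followed by first exon V of NM_001285420 at 109693027 and VI of NM_001048142 at 109693563. First exon VII starts at 109694409 in NM_001285417 and at 109694469 in NM_001316310. All 10 of these transcripts end in the shared exon at 109723382 to 109727007, and the structure of the other transcript, NM_001285421, was not settled. The deposited reads were mapped to mm9, per the submitters' processing notes, and the GRCm38 positions come from the GENCODE annotation matched by transcript identifier.

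The 250 bases ahead of first exons I, III and IV are shown because they are the Bdnf promoters of the RefSeq table (GRCm38.p6, plus strand, 5′ to 3′) that held a match to a motif searched. Capitals mark those matches, and the promoters span chr2:109674450-109674699, chr2:109676782-109677031 and chr2:109692186-109692435.
Bdnf promoter I: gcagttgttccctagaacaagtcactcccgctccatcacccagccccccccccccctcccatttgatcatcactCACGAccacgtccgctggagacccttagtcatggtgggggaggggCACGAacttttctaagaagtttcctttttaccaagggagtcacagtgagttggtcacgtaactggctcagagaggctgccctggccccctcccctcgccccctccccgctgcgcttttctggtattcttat
Bdnf promoter III: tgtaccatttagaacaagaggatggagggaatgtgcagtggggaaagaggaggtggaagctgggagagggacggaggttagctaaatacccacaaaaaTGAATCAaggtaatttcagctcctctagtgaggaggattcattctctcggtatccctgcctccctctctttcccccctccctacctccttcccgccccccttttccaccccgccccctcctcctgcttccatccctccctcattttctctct
Bdnf promoter IV: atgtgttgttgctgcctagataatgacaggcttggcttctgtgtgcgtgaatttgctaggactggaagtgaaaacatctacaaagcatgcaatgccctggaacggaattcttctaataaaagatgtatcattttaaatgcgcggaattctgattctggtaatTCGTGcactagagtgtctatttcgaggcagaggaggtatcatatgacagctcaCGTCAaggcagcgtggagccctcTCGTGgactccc

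Promoter IV held CGTCA, the reverse strand of TGACG, the short form of the cAMP response element that CREB binds, 35 bases before the start. It also held TCGTG, the core bound by the NPAS4 class of factors, 88 and 12 bases before the start. Promoter I held the same core on its reverse strand, as CACGA, 176 and 131 bases before the start. Promoter III held TGAATCA, 152 bases before the start. It matches TGANTCA, a loose form of the AP-1 element of FOS and JUN proteins, with any base allowed at N. Motifs were sought on both strands in 7 Bdnf promoters and 32851 promoters of the table. The 7 lie ahead of first exons I, III, IV, V and VII and of other starts at 109709383 and 109722921. Promoters of first exons II and VI were not among them and were not searched. TGACG was in 1 of 7 Bdnf promoters and 17.8% of all, TCGTG in 2 and 13.3%, and TGANTCA in 1 and 6.75%. The full cAMP response element TGACGTCA was in 0 of 7 and 1.55% of all, and the E-box CACGTG in 0 of 7 and 6.02%. A match is a string of letters in this window and no measurement of binding.

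Libraries of the culture gene capture held 8498 to 3295698 reads over the panel (median 1923703). The CHX libraries held 1253748 to 7695002 reads, the sustained light libraries 379220 to 5744389 and the brief light libraries 270449 to 2756884. For the intron libraries the sum over transcripts was 10486281 to 25945718, in which reads shared by transcripts count more than once. The shallowest, vehicle brief 60 min replicate 2, held 8498 reads, of which 2 were from Bdnf. Captured levels are the deposited signal, which is reads of a gene divided by a factor for each library and not by gene length, so Bdnf is compared only with itself. None of the 23 cell type markers sought is on the panel. In the intron libraries neuronal markers ran from Slc17a7 at 11.9 to 26.9 RPM (the deposited read level scaled for depth) to Map2 at 1990 to 3080 RPM. Astrocyte markers ran from Aqp4 at 4.31 to 16.2 RPM to Slc1a3 at 157 to 270 RPM. Oligodendrocyte lineage markers ran from Mog at 0.0 to 0.334 RPM to Pdgfra at 37.8 to 117 RPM. These levels are not divided by intron length, so they do not rank the cell types. Of 4 microglial markers, Cx3cr1 lay at 0.0 to 0.0997 RPM, P2ry12 at 0.0 to 0.459 RPM, Csf1r at 0.0 to 0.71 RPM and Aif1 at 3.24 to 5.27 RPM. These are bulk samples, in which fewer cells of a type and less RNA per cell cannot be told apart.

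Bdnf RNA was higher after 360 min of sustained activity, and no difference passed the test after brief activity. In vehicle, Bdnf signal had a lowest, median and highest value of 0.0254, 0.0398 and 0.148 in the 7 unstimulated replicates. It was 0.0609, 0.0253 and 0.0442 in the 3 replicates at 20 min of sustained activity. At 60 min of sustained activity the lowest, median and highest of 7 replicates were 0.0516, 0.0779 and 0.158. At 360 min the 6 replicates ran 1.54, 1.75 and 2.68 at the lowest, median and highest, and each of them lay above every unstimulated, 20 min and 60 min replicate. The group means ± SD were 1.85 ± 0.418 at 360 min of sustained activity (n = 6) and 0.0565 ± 0.0432 in unstimulated cultures (n = 7), a 32.6-fold ratio. Bdnf rose by a log2 difference of 4.99 (SE 0.30, limma adjusted p = 1.15e-17 over 280 genes tested), the fifth largest of the panel, in a comparison in which 70.7% of genes passed. Within replicate numbers the ratio of 360 min to unstimulated ran between 27.2 and 62.1, above 1 in 6 of 6 numbers. The median over the panel was itself 1.47 higher on the log2 scale. With libraries rescaled so that this median difference is 0, Bdnf was 3.65 higher (adjusted p = 1.68e-13).

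**Figure D1:**
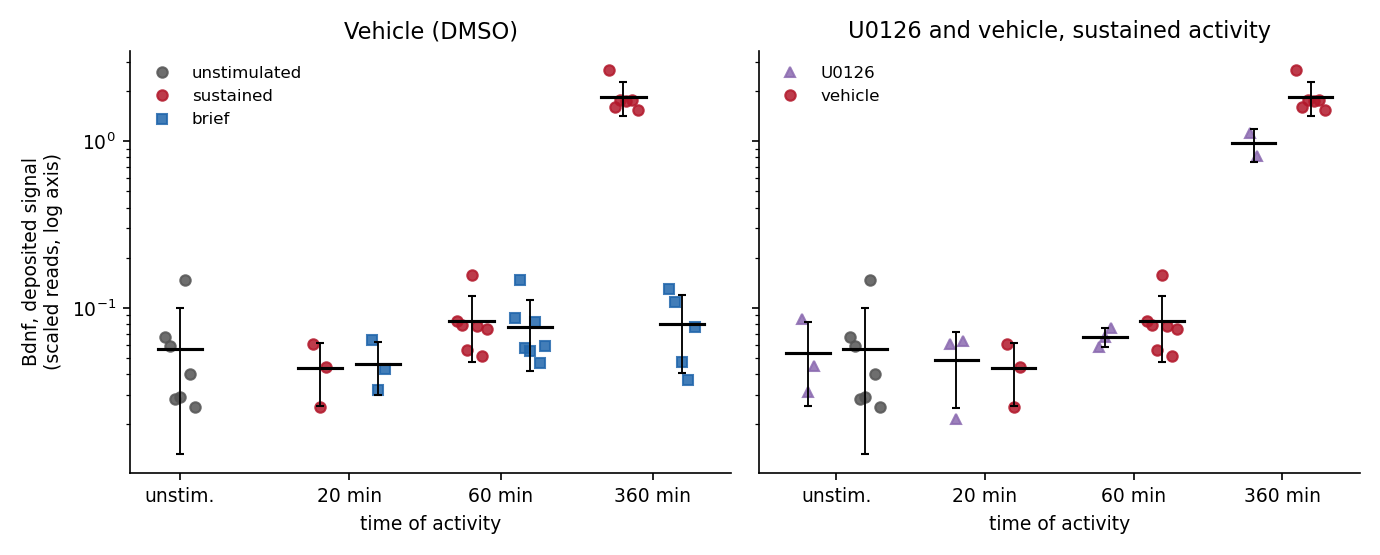
Bdnf in captured culture libraries, with the deposited signal on a log axis, points for replicates, and black bars for the mean and SD. The left panel has vehicle cultures by time, with sustained activity beside brief activity, and the right panel has U0126 beside vehicle. The 6 vehicle replicates at 360 min of sustained activity (1.54 to 2.68) and the 2 in U0126 (0.816 and 1.12) stand above all others, which reach 0.158 at most.

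The early times did not pass the test. At 20 min of sustained activity the log2 difference from unstimulated cultures was -0.18 (SE 0.38, limma adjusted p = 0.998), where 2.14% of 280 genes passed. At 60 min it was 0.61 (SE 0.29, 95% interval 0.02 to 1.21, adjusted p = 0.226), where 12.9% passed. Bdnf signal was higher at 60 min of sustained activity in 6 of 7 replicate numbers, and the exception was number 5, whose unstimulated replicate was the highest of its group at 0.148. Without that unstimulated replicate the difference at 60 min was 0.86 (adjusted p = 0.0262). The step between 60 and 360 min was 4.38 (SE 0.30, adjusted p = 1.25e-15), the second largest of the panel, where 62.9% of genes passed.

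After brief activity Bdnf overlapped the unstimulated cultures. Its signal was 0.0641, 0.0321 and 0.0428 at 20 min. At 60 min the lowest, median and highest of 7 replicates were 0.0466, 0.0588 and 0.148, and at 360 min the 5 values were 0.130, 0.109, 0.0472, 0.0370 and 0.0767. All of these overlap the unstimulated range of 0.0254 to 0.148. A further column headed 360 min of brief activity matched no sample and was not used. The log2 differences from unstimulated cultures were -0.08 at 20 min (limma adjusted p = 0.997, 2.14% of genes passed), 0.50 at 60 min (adjusted p = 0.435, 5.36% passed, and 0.34 without the shallow replicate 2) and 0.52 at 360 min (95% interval -0.13 to 1.17, adjusted p = 0.974). At 360 min of brief activity 0.0% of 280 genes passed in limma, with 9 genes at an unadjusted p under 0.05 and 0 passing in edgeR.

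Set against each other, the patterns differed at 360 min and not detectably at 60 min. At 360 min Bdnf averaged 1.85 ± 0.418 after sustained activity (n = 6) and 0.0800 ± 0.0397 after brief activity (SD, n = 5), a 23.1-fold ratio with no overlap. The log2 difference of sustained over brief was 4.47 (SE 0.33, limma adjusted p = 5.58e-15), where 67.5% of genes passed. At 60 min that difference was 0.11 (95% interval -0.48 to 0.70, adjusted p = 0.990), where 7.5% passed, and sustained was the higher in 3 of 7 replicate numbers. The comparisons with unstimulated cultures share those control samples.

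Bdnf was high at 360 min of sustained activity under MEK inhibition too, at lower values than in vehicle. At 360 min of sustained activity Bdnf signal was 1.12 and 0.816 in U0126, against a lowest, median and highest of 1.54, 1.75 and 2.68 in vehicle. The groups did not overlap, and both U0126 values were below the vehicle value of the same replicate number, at 0.639 and 0.529 of it. The ratio of means was 0.525, and the log2 difference of -0.91 (SE 0.45, 95% interval -1.82 to -0.01) had a limma adjusted p of 0.819, so Bdnf did not pass. In that comparison 0.0% of 280 genes passed in limma, with 17 genes at an unadjusted p under 0.05 and 0 passing in edgeR, and the U0126 group had 2 replicates. The U0126 values were deposited with identical content in a table for sustained and in a table for brief activity, while the labels list U0126 cultures of both patterns. They are given here as sustained, and which pattern the captured U0126 values belong to was not settled. U0126 libraries were in tables of their own, and levels set across tables rest on each library's own factor.

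Within U0126, Bdnf rose at 360 min of sustained activity, to 1.12 and 0.816, against 0.0852, 0.0311 and 0.0450 in unstimulated U0126 cultures. This was an 18-fold ratio of means and a log2 difference of 4.03 (SE 0.50, limma adjusted p = 2.68e-08), where 50.0% of genes passed. The difference between the rise in U0126 and that in vehicle was -0.96 (SE 0.59, 95% interval -2.14 to 0.22, adjusted p = 0.991). For that interaction 0.0% of genes passed in limma, with 4 at an unadjusted p under 0.05 and 0 in edgeR. In unstimulated cultures U0126 gave 0.05 (adjusted p = 0.976), where 0.357% of genes passed. At the early times of sustained activity in U0126, Bdnf signal was 0.0603, 0.0216 and 0.0633 at 20 min and 0.0585, 0.0670 and 0.0753 at 60 min, overlapping the vehicle values at those times.

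Ordered by mean signal, the 11 culture groups fell into vehicle sustained 360 min (1.85), U0126 sustained 360 min (0.969) and 9 groups between 0.0435 and 0.0829. In that lower set neighbours in the order differed by less than the larger of their SDs.

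Bdnf rose at 360 min of sustained activity with protein synthesis blocked as well as with vehicle. In the CHX experiment Bdnf signal at 360 min of sustained activity was 2.32 and 1.78 with CHX, against 2.87 and 4.52 with vehicle. In unstimulated cultures it was 0.0806 and 0.0943 with CHX, against 0.0595 and 0.0680 with vehicle. With CHX the stimulated samples were 23.5-fold above the unstimulated ones (log2 difference 4.37, SE 0.35, limma adjusted p = 9.94e-07 over 283 genes), where 55.8% of genes passed. With vehicle the ratio was 57.9-fold (log2 difference 5.59, SE 0.35, adjusted p = 2.58e-07), where 74.6% passed. The rise at 360 min in vehicle was thus measured in 2 experiments, at 32.6-fold in the gene capture and 57.9-fold here.

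The size of the rise with CHX was not separated from that with vehicle. At 360 min the ratio of CHX to vehicle was 0.556, with both CHX samples below both vehicle samples, and the log2 difference was -0.82 (95% interval -1.59 to -0.05, limma adjusted p = 0.0817), where 40.6% of genes passed. Without vehicle replicate 1 that difference was -1.15 (adjusted p = 0.0372). The difference between the rises was -1.21 (SE 0.50, 95% interval -2.31 to -0.12, adjusted p = 0.117), where 15.9% of genes passed. In unstimulated cultures CHX gave 0.39 (adjusted p = 0.549), where 11.3% passed.

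**Figure D2:**
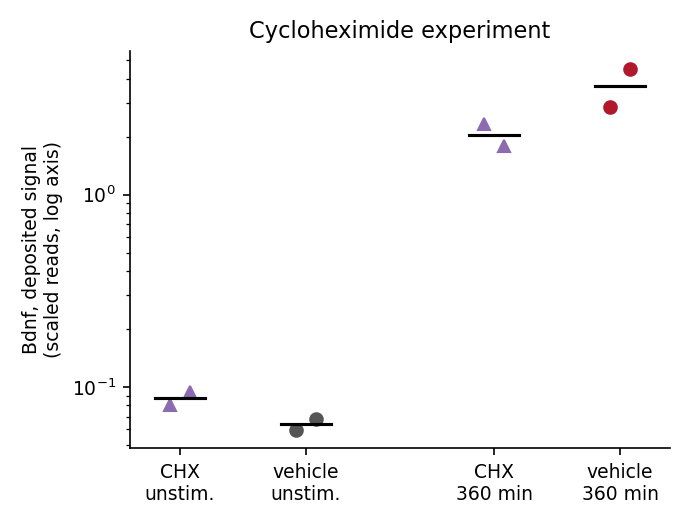
Bdnf in the cycloheximide (CHX) experiment, with the deposited signal on a log axis, 2 samples a group as points and the mean as a bar. The stimulated samples (1.78 to 4.52) lie above the unstimulated ones (0.0595 to 0.0943) with either treatment.

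Bdnf RNA read over introns in total RNA libraries was already higher at 60 min of sustained activity. The captured gene did not pass at that time. Introns of the longer transcripts span first exons of the shorter ones. On GRCm38 the introns of NM_001285418 and NM_001285416 differ only by part of first exon II. In the only vehicle replicate of brief 60 min they had 6.45 and 6.27 RPM, so reads over that part were counted. Whether this holds for the other first exons was not tested, and some of the reads may be of spliced RNA. Intron values are RPM over all introns of a transcript, not per length, and the transcripts are nested, so their reads are largely shared and the 11 are not independent. Over the introns of NM_007540, the transcript of first exon I and the longest, the 2 unstimulated replicates had 2.81 and 4.69 RPM. They had 3.00 and 3.92 RPM at 20 min of sustained activity and 16.4 and 19.7 RPM at 60 min. Both values at 60 min lay above all the others. The ratio of means at 60 min of sustained activity over unstimulated was 4.81, and NM_007540 rose by a log2 difference of 2.23 (SE 0.32, limma adjusted p = 0.00384 over 21513 features).

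At 60 min of sustained activity 10 of 11 Bdnf transcripts passed, all upward, where 7.95% of features passed. For NM_001048141, the transcript of first exon IV, the values were 11.9 and 15.4 RPM at 60 min, against 1.41 and 3.12 RPM unstimulated. Its log2 difference was 2.55 (SE 0.61, adjusted p = 0.0335) and its ratio of means 6.04. With any of the 4 replicates left out it no longer passed, at differences of 2.04 to 3.06 (adjusted p of 0.0721 to 0.183). The log2 differences of the 10 lay between 2.21 and 2.60. NM_001285421 did not pass (1.79, adjusted p = 0.125), with a median of 11 reads a library against 78.5 for NM_007540. The count rests on the spread shared by all groups: 5 transcripts passed with any of the 4 replicates left out, 8 passed in edgeR, and 0 passed when only the 2 groups entered the fit.

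**Figure D3:**
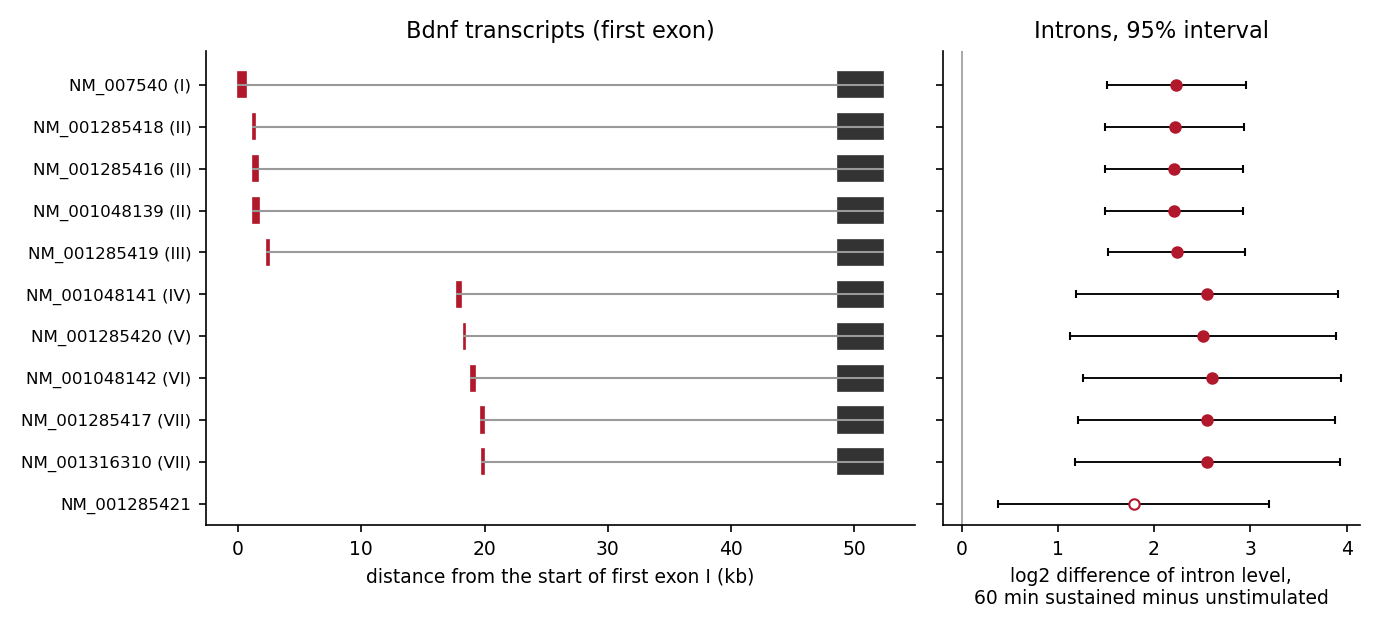
The left panel maps first exons (red) and the shared coding exon (dark) of Bdnf transcripts by distance from the start of first exon I, with the internal exon of NM_001316310 not drawn. The right panel gives the log2 difference of intron level at 60 min of sustained activity minus unstimulated with its 95% interval, filled where it passed the test. All 11 estimates lie above 0, and NM_001285421 (1.79, structure not drawn) did not pass.

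At 20 min the introns did not pass. After sustained activity for 20 min 0 of 11 transcripts passed in limma, 0 had an unadjusted p under 0.05 and 0 passed in edgeR, with NM_007540 at -0.08 (adjusted p = 1.0), where 0.279% of features passed. After brief activity read at 20 min NM_007540 had 5.06 and 5.96 RPM, against 2.81 and 4.69 RPM unstimulated, a log2 difference of 0.56 (95% interval -0.16 to 1.29, limma adjusted p = 0.984). Here too 0 of 11 passed in limma, 0 had an unadjusted p under 0.05 and 0 passed in edgeR, where 0.112% of features passed. The step between 20 and 60 min of sustained activity passed in 11 of 11 transcripts in limma and 8 in edgeR, with NM_007540 at 2.31 (SE 0.32, adjusted p = 0.0143), where 2.29% of features passed. At 60 min NM_007540 had 16.4 and 19.7 RPM after sustained activity and 6.64 RPM in the only replicate after brief activity. That difference was 1.40 (95% interval 0.52 to 2.29, adjusted p = 0.139), in which the lone replicate is assumed to vary like the other groups. With the replicate number as a block it was 1.18 (adjusted p = 0.00516). In that comparison 0 of 11 transcripts passed in limma and 0 in edgeR, with 10 at an unadjusted p under 0.05, where 1.91% of features passed.

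In U0126 the introns of NM_007540 had 16.1 RPM in the only replicate at 60 min of sustained activity, against 2.41 and 3.90 RPM in unstimulated U0126 cultures. The log2 difference was 2.30 (SE 0.39, limma adjusted p = 0.018), and 5 of 11 transcripts passed, those of first exons I, II and III, where 3.19% of features did. These calls take the lone U0126 replicate to vary like the other groups, and with only the 2 groups in the fit NM_007540 had an adjusted p of 0.493. The 2 vehicle replicates at that time had 16.4 and 19.7 RPM. At 20 min of sustained activity it had 2.49 and 4.29 RPM in U0126, against 3.00 and 3.92 RPM in vehicle, and 0 of 11 transcripts passed for U0126 over vehicle in limma, 0 at an unadjusted p under 0.05 and 0 in edgeR, where 0.0139% of features passed. After brief activity read at 20 min NM_007540 had 3.41 and 4.01 RPM in U0126, below the 5.06 and 5.96 RPM in vehicle. For that comparison 0 of 11 transcripts passed in limma, 0 had an unadjusted p under 0.05 and 0 passed in edgeR, where 0.0279% of features passed. At 60 min after brief activity it had 4.13 and 5.62 RPM in U0126, against 6.64 RPM in the only vehicle replicate.

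Because the transcripts are nested, differences between them give the reads of stretches of the gene. The stretch between first exon III and first exon IV is 15.6 kb long on GRCm38 and includes first exon IV itself. It had 1.37 and 1.33 RPM in unstimulated cultures, 1.58 and 1.71 RPM at 20 min of sustained activity and 4.13 and 3.59 RPM at 60 min. It rose at 60 min of sustained activity by a log2 difference of 1.36 (SE 0.15, limma adjusted p = 0.00102). After brief activity it had 2.68 and 2.49 RPM at 20 min, above both unstimulated values, with a log2 difference of 0.83 (SE 0.15, unadjusted p = 0.000277, adjusted p = 0.117) that did not pass. Intron libraries of the same replicate number deviated together (lowest correlation 0.842), and with that number as a block the stretch passed (adjusted p = 0.0209). The only brief replicate at 60 min had 3.13 RPM.

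The stretch between first exon VII and the coding exon, 28.8 kb long, lies downstream of the first exons of all 10 mapped transcripts. It holds other Bdnf starts listed by RefSeq, at 109709383 and 109722921, so it is not only downstream intron. It had 1.15 and 2.68 RPM in unstimulated cultures, 0.927 and 1.42 RPM at 20 min of sustained activity and 9.95 and 13.5 RPM at 60 min. It rose at 60 min of sustained activity by 2.55 (SE 0.60, limma adjusted p = 0.0308). With any of the 4 replicates left out it no longer passed, at differences of 2.02 to 3.08 (adjusted p of 0.0646 to 0.172). After brief activity it had 2.08 and 2.78 RPM at 20 min and 2.86 RPM at 60 min, near the higher unstimulated value. The stretch between first exons IV and VII, which includes first exons V, VI and VII, rose by 1.90 (limma adjusted p = 0.0429) at 60 min of sustained activity. That value was not recomputed with replicates left out. The stretch between I and III held 0 to 13 reads a library, below the level set for testing.

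The balance of the 2 long stretches shows where along the gene the reads lay. The RPM of the downstream stretch divided by that of the upstream stretch was 2.41 and 3.76 at 60 min of sustained activity in vehicle and 2.85 in U0126. It was 0.912 at 60 min after brief activity and 0.778 and 1.12 at 20 min, against 0.841 and 2.03 in unstimulated cultures. At 20 min of sustained activity it was 0.586 and 0.829. The values at 60 min of sustained activity were the highest of these, and the ratio was given no test. An antisense gene, Gm45346, lies on the minus strand of chromosome 2 at 109670908 to 109676591 (GRCm38) and overlaps first exons I and II. The kit was stranded, but the sources used here do not give whether counting used the strand, so its reads cannot be told apart from those of Bdnf there.

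**Figure D4:**
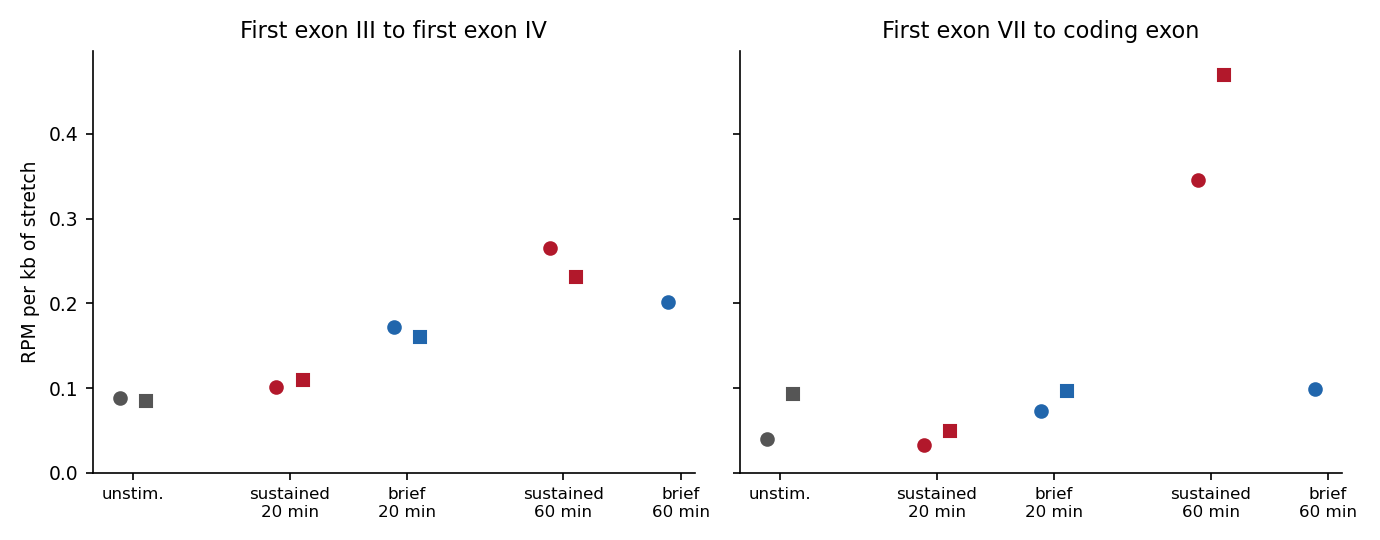
Intron reads per kb of stretch (RPM per kb, linear axis) in vehicle total RNA libraries, with circles for replicate 1 and squares for replicate 2. Upstream, between first exons III and IV, every value after sustained or brief activity lies above both unstimulated values. The highest there are those at 60 min of sustained activity. Downstream, between first exon VII and the coding exon, the 2 replicates at 60 min of sustained activity stand above the rest.

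In visual cortex Bdnf was higher after 150 min of sustained light. With corn oil the 3 samples at 150 min of sustained light had a Bdnf signal of 0.130, 0.145 and 0.158, against 0.0651 and 0.0503 in 2 dark samples. The groups did not overlap, the ratio of means was 2.51, and Bdnf rose by a log2 difference of 1.29 (SE 0.24, limma adjusted p = 0.0028 over 266 genes), where 9.4% of genes passed. Without dark replicate 2 the difference was 1.11 (adjusted p = 0.0646). Over the whole panel the median was 0.16 higher in this comparison, and with that median set to 0 Bdnf was 1.14 higher (adjusted p = 0.0056). At 30 min of sustained light the values were 0.0924, 0.0907 and 0.0956, against 0.0773 and 0.0786 in darkness, a log2 difference of 0.24 (adjusted p = 0.445) where 34.2% of genes passed. At 30 min the median of all genes was 0.31 higher, and with that set to 0 the Bdnf difference was -0.06. The response at 150 min exceeded that at 30 min by 1.04 (95% interval 0.31 to 1.77, adjusted p = 0.114), where 4.14% passed.

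With SL327 the light response at 150 min did not pass. The 3 samples in sustained light with SL327 had 0.0585, 0.142 and 0.0998, against 0.0668 and 0.0694 in 2 dark SL327 samples, so the groups overlapped. The value 0.0585 comes from a column headed sl317 and the dark value 0.0694 from one headed sl217, and both headings were taken as slips for SL327. The ratio of means was 1.47 and the log2 difference 0.45 (95% interval -0.06 to 0.97, limma adjusted p = 0.386), where 0.376% of genes passed. The lowest of these, replicate 1, came from a library of 379220 reads with 189 reads of Bdnf. Without it the difference was 0.78 (adjusted p = 0.026), and without the dark value 0.0694 it was 0.48 (adjusted p = 0.701). At 150 min of sustained light SL327 samples had 0.0585, 0.142 and 0.0998, against 0.130, 0.145 and 0.158 with corn oil. That log2 difference was -0.60 (SE 0.22, unadjusted p = 0.0146, adjusted p = 0.138), without SL327 replicate 1 it was -0.27 (adjusted p = 0.406), and without SL327 replicate 2 it was -0.89 (adjusted p = 0.0126). For it 0.0% of 266 genes passed in limma, with 54 at an unadjusted p under 0.05 and 0 in edgeR. The difference between the light responses with SL327 and with corn oil was -0.83 (95% interval -1.56 to -0.11, adjusted p = 0.251), where 0.376% of genes passed. Without SL327 replicate 1 it was -0.51 (adjusted p = 0.256), and without SL327 replicate 2 it was -1.12 (adjusted p = 0.0456).

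At 30 min of sustained light SL327 samples had 0.0846, 0.0826 and 0.0851, against 0.0924, 0.0907 and 0.0956 with corn oil. The log2 difference was -0.14 (limma adjusted p = 0.782), where 1.88% of genes passed. Every SL327 value was below every corn oil value, and with the median of all genes set to 0 the difference was 0.01. The dark samples at 30 min had 0.100 and 0.130 with SL327, against 0.0773 and 0.0786 with corn oil.

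Brief light gave no detectable difference. At 30 min Bdnf was 0.0598, 0.0586 and 0.0882 in brief light with corn oil, against 0.0620, 0.0808 and 0.0781 in darkness, a log2 difference of -0.11 (95% interval -0.64 to 0.42, limma adjusted p = 0.916) where 1.15% of 260 genes passed. At 150 min it was 0.0609 and 0.0548 in brief light, against 0.0671 and 0.0653 in darkness. That difference was -0.19 (95% interval -0.83 to 0.46, adjusted p = 0.844), and 0.0% of genes passed in limma, with 18 at an unadjusted p under 0.05 and 0 in edgeR. At 30 min of brief light SL327 samples had 0.0609, 0.0640 and 0.0909, against 0.0598, 0.0586 and 0.0882 with corn oil. That difference was 0.06 (adjusted p = 0.925), where 5.0% passed. The SL327 value 0.0609 there comes from a column headed sl217, taken as the same slip. The brief and sustained light tables were fitted apart and are not compared with each other.

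**Figure D5:**
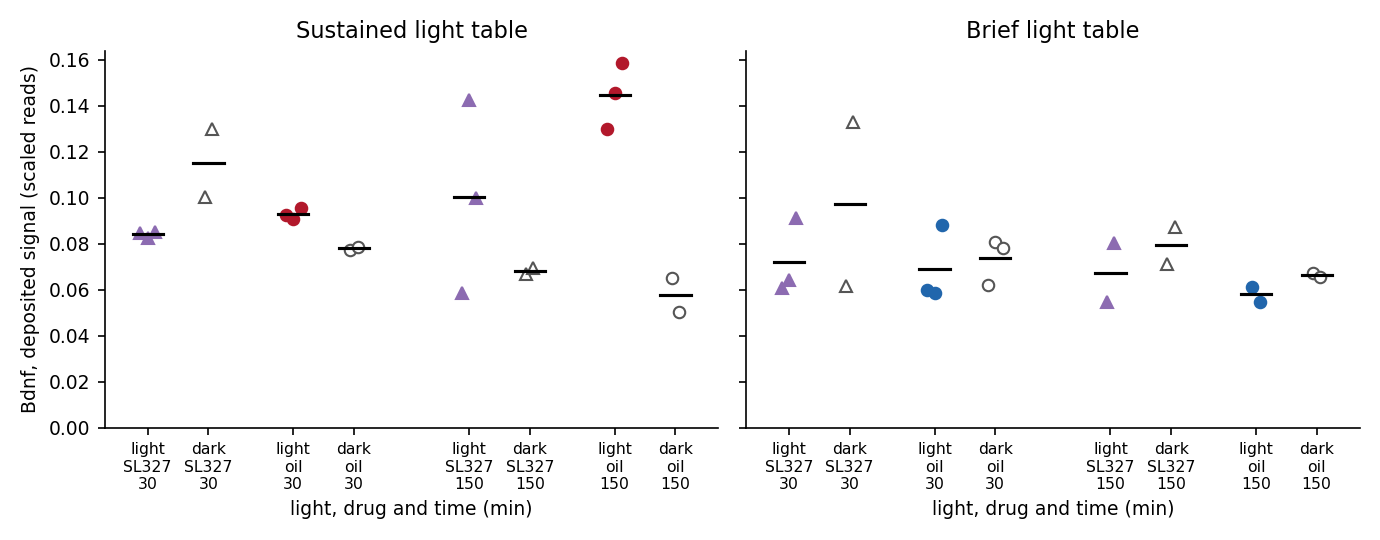
Bdnf in visual cortex, with the deposited signal on a linear axis, points for samples and bars for means, by drug and time. Filled points are samples in light and open points samples in darkness. The corn oil samples at 150 min of sustained light (0.130 to 0.158) stand above their dark group (0.0503 and 0.0651).

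Genes that process or accompany the BDNF precursor rose at 360 min of sustained activity in the gene capture, in 4 of 4 panel members. Their median log2 difference was 4.12, beside 1.47 over all 280 genes, of which 70.7% passed. Pcsk1, a convertase that cleaves precursors in secretory granules, rose by 6.63 (limma adjusted p = 4.98e-22), Vgf, a granule peptide precursor, by 4.23 (adjusted p = 4.39e-09), the granin Scg2 by 4.00 (adjusted p = 2.7e-11) and the granin Chga by 1.09 (adjusted p = 0.0101). At 60 min 2 of 4 had passed, where 12.9% of all genes did, Pcsk1 at 2.14 (adjusted p = 1.19e-07) and Vgf at 3.01 (adjusted p = 8.47e-06). In U0126 over vehicle at 360 min 0 of 4 passed in limma, 0 had an unadjusted p under 0.05 and 0 passed in edgeR, with a median of -0.53 beside -0.16 over all genes, of which 0.0% passed. In visual cortex at 150 min of sustained light 2 of 4 passed, where 9.4% of all 266 genes did, Pcsk1 at 1.08 (adjusted p = 0.00252) and Scg2 at 0.44 (adjusted p = 0.0162).

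Of the factors named as regulators of Bdnf transcription, 9 of 10 panel members rose at 60 min of sustained activity, with a median log2 difference of 4.07 beside 0.10 over all genes, of which 12.9% passed. Npas4 rose by 6.37 (limma adjusted p = 9.03e-18) and the AP-1 subunit Fosb by 7.08 (adjusted p = 4.11e-13). Fos, of the same family as Fosb, rose by 6.14 (adjusted p = 1.05e-16), and the nuclear receptor Nr4a1 by 4.85 (adjusted p = 5.01e-15). At that time Bdnf itself stood at 0.61 and did not pass. At 360 min 9 of 10 were higher, where 70.7% of all genes passed, with a median of 3.4 beside 1.47, among them Npas4 at 6.35 (adjusted p = 1.49e-17) and Crem, a CREB family factor, at 3.29 (adjusted p = 1.49e-11). U0126 over vehicle at 360 min passed in 0 of 10 in limma, 0 at an unadjusted p under 0.05 and 0 in edgeR, with a median of -0.74 beside -0.16 over all genes, of which 0.0% passed. With CHX over vehicle at 360 min 9 of 10 were higher, with a median of 2.19 beside -0.08 over all genes, of which 40.6% passed in either direction, while Bdnf was at -0.82. Examples there are Gadd45b, a factor of DNA demethylation, at 4.97 (adjusted p = 3.77e-05), Junb at 4.39 (adjusted p = 3.15e-05) and Fos at 3.22 (adjusted p = 3.15e-05). In visual cortex 4 of 10 passed at 150 min of sustained light, where 9.4% of all genes did, among them Nr4a1 at 1.81 (adjusted p = 0.0319) and Crem at 0.50 (adjusted p = 0.0271).

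Of the genes of TrkB signalling and its feedback, 3 of 6 panel members passed upward at 60 min of sustained activity, where 12.9% of all genes passed, with a median of 0.95 beside 0.10. At 360 min 5 of 6 passed upward, near the 70.7% of all genes that passed, and their median of 1.48 lay beside 1.47 over all genes. At 360 min the MAP kinase phosphatases Dusp4 and Dusp1 rose by 1.87 (limma adjusted p = 7.91e-05) and 2.29 (adjusted p = 0.000292). U0126 over vehicle at 360 min passed in 0 of 6 in limma and 0 in edgeR, with 4 at an unadjusted p under 0.05 and a median of -1.21 beside -0.16 over all genes, of which 0.0% passed, and Dusp6, a phosphatase of ERK, was at -1.41 (adjusted p = 0.636). In visual cortex 0 of 6 passed at 150 min of sustained light in limma and 0 in edgeR, with 1 at an unadjusted p under 0.05 and a median of 0.45 beside 0.16 over all genes, of which 9.4% passed.

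Among introns at 60 min of sustained activity, 0 of 7 tested members of the neurotrophin family and its receptors passed in limma. Also 0 had an unadjusted p under 0.05 and 0 passed in edgeR. Of all features 7.95% passed in limma, and with 7 genes a count of 0 is near that share. Ntf3, another neurotrophin, was at -0.69 (limma adjusted p = 0.79), and the median of the 7 was -0.16 beside -0.09 over all features. None of this family is on the captured panel. Introns of the processing genes passed in 4 of 18, led by Pcsk1 at 5.63 (adjusted p = 5.14e-06), and those of the regulators in 11 of 30, led by Nr4a1 at 6.51 (adjusted p = 5.3e-06). Introns of TrkB signalling genes passed in 3 of 28, all of them Dusp phosphatases and a share near the 7.95% of all features. At 20 min of sustained activity the regulators passed in 6 of 30, where 0.279% of all features did, with Npas4 at 5.85 (adjusted p = 0.000145). The processing genes passed in 2 of 18, Vgf at 2.97 (adjusted p = 0.00213) and Pcsk1 at 1.42 (adjusted p = 0.0306). Bdnf transcripts then lay between -1.14 (NM_001285421) and -0.08 (NM_007540), and 0 of 11 passed. Of 23 cell type markers in introns, 19 were tested and 0 passed at 60 min in limma or in edgeR, with 1, the neuronal Snap25 at 0.59, at an unadjusted p under 0.05.

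With CHX at 360 min of sustained activity over unstimulated CHX cultures, the processing genes passed in 4 of 4, the regulators in 9 of 10 and the TrkB genes in 4 of 6, where 55.8% of all 283 genes passed. Their medians were 3.24, 5.32 and 1.53, beside 1.27 over all genes and 4.37 for Bdnf, so that the count and the median of the TrkB genes lay near those of the panel.

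The genes whose captured level followed Bdnf most closely, by Pearson correlation of log2 group means over 11 culture groups, were Nap1l5 (r = 0.992), Grasp (0.991), Homer1 (0.987), Gmeb2 (0.986) and Stk40 (0.985). Their log2 differences at 360 min of sustained activity over unstimulated were 1.86, 2.75, 2.79, 1.68 and 1.96, below the 4.99 of Bdnf. The groups share libraries and the 360 min samples dominate the pattern: 98 of the other 279 genes had r above 0.9, and the median was 0.842. In introns, over 10 groups against NM_007540, the closest were Apmap (0.976), Csnk1g2 (0.976), Eif1a (0.973), Gadd45b (0.973) and Prkar1a (0.971).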

How the data were processed

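RNA of cultured cortical neurons and visual cortex was measured in 186 samples, and 127 deposited columns were used here. Libraries were stranded total RNA, enriched with RNA baits where captured, per the labels' protocols. Per the submitters' processing notes, which give no versions, the tools were STAR, SAMtools and bedtools and the build was mm9. The captured tables were deposited by the authors as a signal, reads per gene divided by a factor for each library, and the sources used here do not say how that factor was set. The intron table was deposited by the authors in RPM. Whole reads were recovered for 100.0% of values in every column (tolerance 0.05 reads) and gave the depths, from which intervals would cover counting error only.

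Of the deposited per-sample columns, 30 were not used: 2 identical total RNA columns under different labels, 1 column that matched no sample, 13 unstimulated columns repeated in the brief table and 14 of the U0126 table for brief activity, whose values equal those of the U0126 table for sustained activity and were used once, as sustained. The column that matched no sample was headed 360 min replicate 4 in the brief table. Sample titles give replicate 4 of vehicle sustained 360 min 2 times, and which of these samples its column belongs to was not settled. The headings sl217 and sl317 of 3 visual cortex columns were taken as SL327. Cultures grown separately from 1 dissection were averaged.

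Tests were run in limma 3.58.1 (R 4.3.3) on log2 values after adding a pseudocount, the 10th percentile of non-zero values. All groups of 1 experiment entered the same fit, and features of lower mean were left out. The pseudocount was 0.00936 for the gene capture, 0.0115 for CHX, 0.248 for introns, and 0.00317 and 0.00341 for sustained and brief light. Such differences understate changes of low genes. Tests were two-sided, adjusted p are Benjamini-Hochberg values over all features tested and the threshold was 0.05. edgeR 4.0.16 (quasi-likelihood) on recovered reads was an alternative, as were other pseudocounts and filters, rescaling, the replicate block and leaving out each replicate. The fits were tested on simulated data. Leaving out the shallowest libraries of the 60 min groups together and taking stretches between first exons were chosen after seeing the data, and the first changed no call. Stretches between first exons were had by subtracting nested transcripts, with lengths from GENCODE vM21 (GRCm38), and promoters came from RefSeq. Python 3.11.15, numpy 2.4.6, pandas 2.3.3 and matplotlib 3.10.9 were used.

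The members, lists and tests were chosen with earlier results of these data known. Named are Bdnf and its transcripts, the 5 genes most correlated with it per table, and up to 4 members of each of 4 lists with the smallest adjusted p. Genes of a list in introns are represented by the transcript of highest mean.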

Additional observations from a re-analysis of the deposited data

Results flagged for a closer look

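In 4 of the 5 groups of the culture gene capture large enough to test, the highest replicate stood apart from the others of its group by Dixon's criterion, which chance flags in about 1 in 20 groups. These were a Bdnf signal of 2.678 in vehicle sustained 360 min replicate 1, 0.1584 in sustained 60 min replicate 4, 0.1478 in brief 60 min replicate 2 and 0.1476 in unstimulated replicate 5. The value 0.1478 came from the library with 2 Bdnf reads.

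Bdnf differed between groups in 3 tests of the difference itself: sustained over brief activity at 360 min (log2 difference 4.47), 360 over 60 min of sustained activity (4.38) and the introns of NM_007540 at 60 over 20 min of sustained activity (2.31).

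A column of the intron table was deposited with identical values as vehicle brief 60 min replicate 2 and as U0126 sustained 60 min replicate 2, and was left out. In it NM_007540 had 16.3 RPM, while replicate 1 had 6.64 RPM after brief activity in vehicle and 16.1 RPM at 60 min of sustained activity in U0126. Which label is right was not tested.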

How the results depend on the processing

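Of 607 alternative values over 41 results, 556 kept their direction and their side of the threshold. Log2 differences near 0 changed sign. With 1 replicate left out, sustained 20 min ran between -0.41 and 0.10, brief 20 min between -0.30 and 0.16, sustained over brief 60 min between -0.0427 and 0.273, U0126 over vehicle unstimulated between -0.29 and 0.32, and SL327 over corn oil in brief light 30 min between -0.11 and 0.25. U0126 over vehicle unstimulated was -0.0701 in edgeR, -0.0762 with first cultures only and -0.123 with numbers 5 to 7 only, where brief 360 min was -0.0293. Rescaling gave -0.061 for sustained light 30 min and 0.0142 for SL327 over corn oil in it. Calls depended on a replicate for sustained 60 min (0.46 to 0.86), CHX over vehicle at 360 min (-1.15 to -0.49), sustained light 150 min (1.11 to 1.46), the same with SL327 (0.16 to 0.78), SL327 over corn oil in it (-0.89 to -0.27) and the difference between those light responses (-1.12 to -0.51). The count of Bdnf transcripts past the threshold at 60 min of sustained activity was 5 with first cultures only, 0 with only the 2 groups in the fit and 5 to 5 with a replicate left out. The causes were not tested.

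The labels do not say that replicate numbers pair the samples. Deviations from group means correlated as low as -0.26 within a number of the gene capture, where 36 of 48 samples correlated best with their own number. In the CHX experiment 8 of 8 did, with same-number correlations as low as -0.10, and in introns 16 of 16, with same-number correlations of 0.842 or more (median 0.863, against -0.863 for other numbers). With 2 numbers a group, the correlations for other numbers mirror those for the same number. With the replicate block brief 20 min was 0.0105, 11 of 11 transcripts passed at 60 min of sustained activity, and features called there numbered 4920 rather than 1710. The block also brought past the threshold NM_001285421 at that time (1.79, adjusted p = 0.00214), the stretch between first exons III and IV at brief 20 min (0.83, adjusted p = 0.0209) and NM_007540 for sustained over brief 60 min (1.18, adjusted p = 0.00516). It changed no other call among the results recomputed with it. The enhancer comparisons were not run, since 0 regions were assigned to Bdnf.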
